A study of Mus musculus with 14 samples.

Results

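Among 14 sorted mouse lung adenocarcinomas, 6 macrophage-rich tumors, in which leukocyte and alveolar macrophage transcripts were abundant, were compared with 5 macrophage-poor tumors, in which they were scarce. The classes were chosen from measured values of these same libraries, the levels of Ptprc, Csf1r, Marco, Epcam, Sftpc and Rb1 among them. The macrophage-rich class held KPY-Ctrl_1, KPY-Ctrl_2 and KPY-Setd2KO_1 to KPY-Setd2KO_4, and the macrophage-poor class held KPY-Ctrl_3, KPY-Ctrl_4, KPY-Ctrl_5, KPY-Setd2KO_5 and KPY-Setd2KO_6. The remaining 3 tumors, KPY-Ctrl_6, KPY-Setd2KO_7 and KPY-Setd2KO_8, were intermediate and entered neither class. Because the values that defined the classes are the values compared, every difference between them is given as a description, without a p-value.

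All tumors came from KPY mice, which carry floxed Trp53 alleles and a Cre-activated YFP reporter, on a mixed B6J/129S4vJae background with both sexes used. Tumors were started by a lentiviral vector given through the trachea that carried Cre, Cas9 and a guide RNA. The guide was directed at beta-galactosidase in the 6 KPY-Ctrl tumors and at Setd2, a histone H3 methyltransferase gene, in the 8 KPY-Setd2KO tumors. Tumors were microdissected and digested with enzymes, and live YFP-positive cells were sorted and frozen before RNA extraction. YFP marks any cell that recombined its reporter, whatever its lineage. Whether leukocytes were gated out of the RNA sort, which mouse each tumor came from, and the age at collection are not given in the sources used here, and the GEO labels describe the RNA source as cell lines while the published methods describe sorted tumors. The mice were fewer than the tumors in both genotypes, so some tumors share a mouse, and p-values over tumors measure the spread between these samples and may be too small.

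Alveolar macrophages are the resident phagocytes of the airspaces. They take up surfactant, apoptotic cells and particles, and they depend on CSF2 signalling and the nuclear receptor PPAR gamma. The tumor cells of this model usually arise from alveolar type 2 cells, which make surfactant, and resident macrophages lie next to them in the alveolus. Dissociation of solid tissue is known to induce immediate-early and heat shock genes in many cell types.

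The total estimated count ranged from 20072236 to 51828846 per tumor across the 14 libraries. It averaged 36104400 ± 5491723 (SD, n = 6) in the macrophage-rich and 39481983 ± 8737337 (SD, n = 5) in the macrophage-poor tumors, a difference smaller than the spread between tumors (exact permutation test, two-sided, p = 0.45, with 0.00433 the smallest p these groups allow). The macrophage-rich class held 2 KPY-Ctrl and 4 KPY-Setd2KO tumors and the macrophage-poor class 3 and 2 (Fisher's exact test, two-sided, p = 0.567). Values are CPM, counts scaled to a common library total and adjusted by TMM, a normalization that assumes most genes are alike between libraries. The TMM factors themselves did not overlap, lying between 0.831 and 0.964 in the macrophage-rich and between 1.09 and 1.24 in the macrophage-poor tumors.

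The leukocyte antigen gene Ptprc (CD45; chromosome 1, 138062861 to 138175708, minus strand, GRCm38) spanned 381 to 698 CPM in the macrophage-rich tumors, with a median of 497. It stood at 6.76, 15.2, 11.9, 5.32 and 5.53 CPM in KPY-Ctrl_3, KPY-Ctrl_4, KPY-Ctrl_5, KPY-Setd2KO_5 and KPY-Setd2KO_6, the order used for the macrophage-poor tumors throughout. The lowest rich tumor was far above the highest poor tumor, and the log2 fold change (rich minus poor, with genotype as a covariate) was 6.03 ± 0.38 (SE). Csf1r, the receptor that macrophages need for survival, spanned 281 to 405 CPM with a median of 318 in the rich class, against 7.86, 19.4, 12.6, 5.49 and 8.61 CPM in the poor class. Marco, a scavenger receptor of alveolar macrophages (chromosome 1, 120474538 to 120505024, minus strand), spanned 317.5 to 1696 CPM with a median of 846, against 9.54, 12.1, 15.9, 8.08 and 15.04 CPM. All 3 markers left a wide gap between the classes and none was at 0 in a macrophage-poor tumor. The tumors left out held 219 (KPY-Ctrl_6), 17.8 (KPY-Setd2KO_7) and 28.2 CPM (KPY-Setd2KO_8) of Ptprc, below every rich tumor and above every poor tumor. In bulk RNA, fewer cells of a type and less RNA per cell cannot be told apart.

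Epcam, an adhesion molecule of epithelia (chromosome 17, 87635979 to 87651129, plus strand), went the other way, at 72.2 to 242 CPM with a median of 174 in the macrophage-rich tumors and 482, 519, 517, 578 and 843 CPM in the macrophage-poor tumors. The classes did not overlap, but the log2 fold change of -1.85 ± 0.29 (SE) was much smaller in size than that of Ptprc. The surfactant gene Sftpc (chromosome 14, 70520949 to 70524081, minus strand) spanned 3038.5 to 10327.5 CPM with a median of 7452 in the rich class. It reached 34447, 23122 and 29089 CPM in the 3 macrophage-poor KPY-Ctrl tumors but only 8589.9 and 13102 CPM in the 2 macrophage-poor KPY-Setd2KO tumors, so the classes overlapped. Rb1, the retinoblastoma tumor suppressor gene (chromosome 14, 73183673 to 73325822, minus strand), separated the classes with little spread inside them. It lay between 65.5 and 77.85 CPM with a median of 68.2 in the macrophage-rich tumors and at 8.78, 8.72, 8.02, 13.5 and 12.2 CPM in the macrophage-poor tumors, a log2 fold change of 2.72 ± 0.14 (SE).

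**Figure D1:**
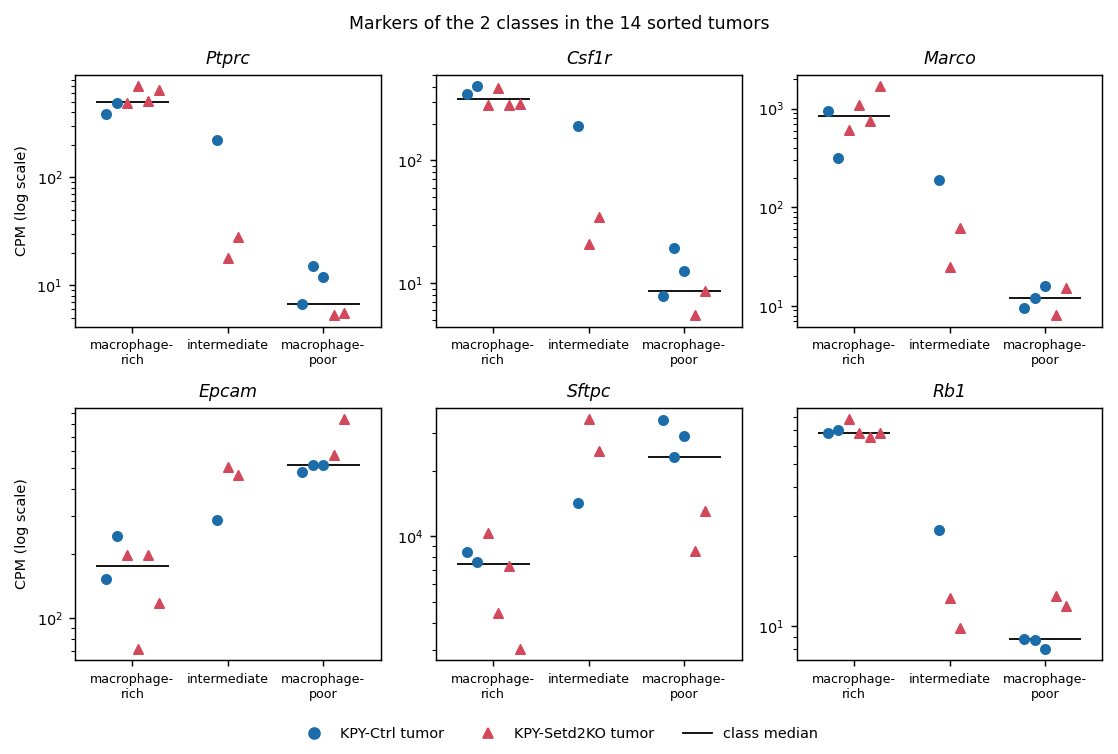
CPM (log axis) of 6 marker genes in each of the 14 tumors, placed by class, with circles for KPY-Ctrl, triangles for KPY-Setd2KO and a line at each class median. Ptprc, Csf1r, Marco and Rb1 are high and Epcam is low in all 6 macrophage-rich tumors, Sftpc overlaps between the classes, and KPY-Ctrl_6 lies closer to the rich class for Ptprc but between the classes for Rb1.

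Across the transcriptome, 16836 genes were tested. A gene was called separated when its log2 CPM values in the 6 and 5 tumors did not overlap and its absolute log2 fold change was over 1. By this rule 2402 genes (14.3%) were higher and 2137 genes (12.7%) were lower in the macrophage-rich tumors. These shares are the background against which the lists are read. The median log2 fold change was 2.25 among the separated genes that were higher and -1.77 among those that were lower, and 538 genes exceeded 4 while 35 fell below -4. The median over all genes was -0.032. Scaling by library size alone moved it to -0.41, and the separated genes then numbered 1674 higher and 3402 lower, so the share of higher calls went from 52.9% to 33.0%. Lists whose median stays near 0 therefore have no firm direction. All fold changes below are on the TMM scale.

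Every member of the pan-leukocyte list (15 of 15) and of the macrophage list (16 of 16) was separated upward, as were 14 of 15 alveolar macrophage genes. Their median log2 fold changes were 4.71, 5.15 and 5.32. Chil3, a chitinase-like protein secreted by alveolar macrophages, spanned 22540 to 52904 CPM in the macrophage-rich tumors with a median of 28002. It stood at 239.7, 546.3, 358.1, 142.3 and 352.0 CPM in the macrophage-poor tumors. The gene thus made up several percent of the counts in the rich libraries and remained detectable in each poor one. Siglecf, a lectin that marks alveolar macrophages in the lung, spanned 181 to 295 CPM against 2.97, 6.05, 5.63, 2.53 and 3.64 CPM. Lyz2, the lysozyme of macrophages and alveolar type 2 cells alike, had the smallest difference of the macrophage list, at 23812 to 43549 CPM against 2429.6, 3391.5, 4924, 1689 and 4574 CPM. Krt79 was the exception among the alveolar macrophage genes, since KPY-Ctrl_3 held 184 CPM and overlapped the rich tumors, which began at 153 CPM.

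**Figure D2:**
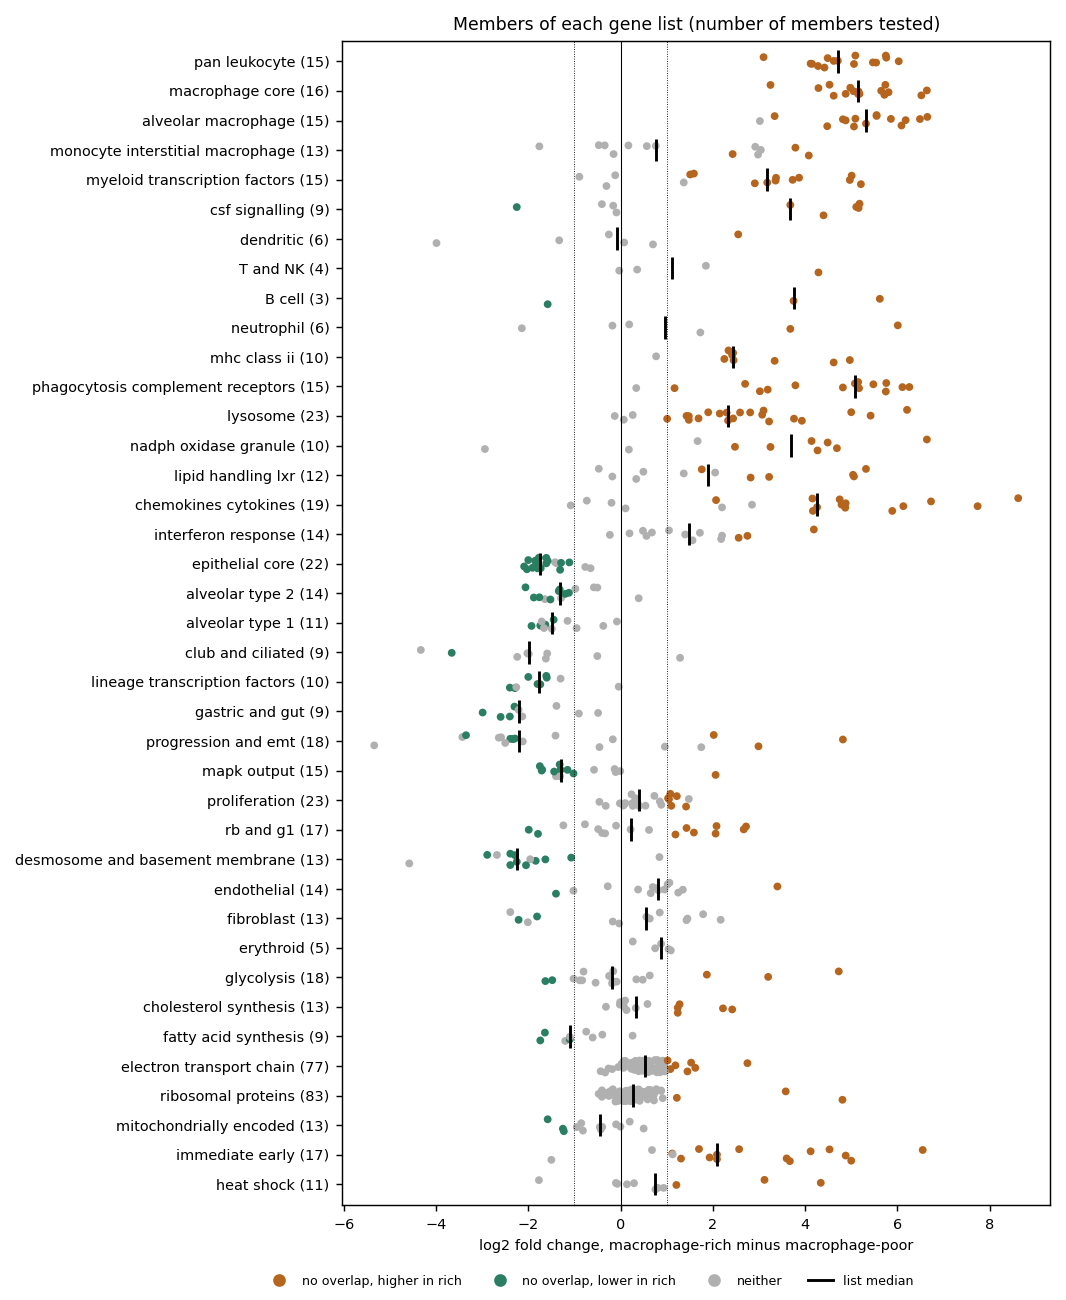
Log2 fold change (macrophage-rich minus macrophage-poor, x axis) of every tested member of 39 gene lists (y axis, number of members tested in brackets), with the list median as a black bar and colours for members whose values did not overlap and exceeded 1 in size. The medians of the macrophage and alveolar macrophage lists sit near 5, and that of the monocyte and interstitial macrophage list is 0.763. The epithelial lists lie between -1.30 and -2.21, and the medians of the ribosomal and electron transport lists are 0.268 and 0.535.

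Genes of monocytes and interstitial macrophages followed the classes less closely. Of 13 tested genes of the monocyte and interstitial macrophage list 3 were separated (Ms4a7, Ccr2 and Cd14), with a list median of 0.76. C1qa, the complement component that interstitial macrophages express strongly, ranged from 1.48 to 114 CPM within the macrophage-rich tumors and from 1.67 to 7.39 CPM within the macrophage-poor tumors, so the classes overlapped. Its highest value belonged to KPY-Ctrl_2, the tumor that also held the most Ccr2, a chemokine receptor of recruited monocytes, at 71.9 CPM against at most 6.33 CPM in the other rich tumors. KPY-Ctrl_2 also held the most Col1a1, a fibroblast collagen gene, at 30.9 CPM against at most 6.53 CPM in the other rich tumors. C1qa was at 10.35 to 22.1 CPM in the 4 macrophage-rich KPY-Setd2KO tumors and 1.48 CPM in KPY-Ctrl_1, and Ms4a7 was no higher in KPY-Ctrl_2 than in any other rich tumor. Apoe, a lipoprotein of foamy and interstitial macrophages, was at 228 to 274 CPM in the rich class and ran from 59.3 to 1139 CPM in the poor class.

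Most transcription factors and growth factor receptors of the alveolar macrophage followed the markers. Of 15 myeloid transcription factors 11 were separated upward. Spi1, which encodes the macrophage master regulator PU.1, spanned 201 to 297 CPM against 5.73, 13.6, 10.2, 4.78 and 8.35 CPM. Pparg, needed for alveolar macrophage identity, spanned 184 to 343 CPM against 52.55, 41.4, 41.7, 28.6 and 26.3 CPM. Maf, a factor of other tissue macrophages, stayed low in both classes, at no more than 6.84 CPM, and overlapped. Among CSF signalling genes the receptor subunits Csf1r, Csf2ra, Csf2rb, Csf2rb2 and Csf3r were separated upward and Il3ra was not (-0.40 ± 0.33, SE), with Csf2ra at 184 to 342 CPM against 9.24, 15.6, 12.3, 9.93 and 17.6 CPM. The ligand Il34, which epithelia make, was separated in the opposite direction, at 1.45 to 7.41 CPM against 22.2, 21.5, 18.3, 20.8 and 21.2 CPM. Csf1, the other ligand of Csf1r, overlapped.

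Functions of phagocytes were higher in the macrophage-rich tumors over most of their members. Of 15 tested phagocytic and complement receptor genes 14 were separated upward (median 5.08), the exception being the scavenger receptor Cd36 at a log2 fold change of 0.34 ± 0.31 (SE). In the lysosome list 20 of 23 were separated upward (median 2.33). Ctss, the cathepsin that trims the class II invariant chain, led that list at 4355 to 13698 CPM against 77.1, 185, 119, 67.1 and 100.5 CPM. Gaa, Npc2 and Ctsl, lysosomal genes that are active in most cells, overlapped. The NADPH oxidase and granule list had 7 of 10 tested members separated upward, led by Cybb, the catalytic subunit of the phagocyte oxidase, at 1242.5 to 2709 CPM against 18.2, 35.4, 21.6, 9.55 and 12.2 CPM. The inducible nitric oxide synthase gene Nos2 was instead highest in KPY-Setd2KO_5 and KPY-Setd2KO_6, at 19.8 and 14.6 CPM, and did not exceed 1.06 CPM in any macrophage-rich tumor.

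Antigen presentation genes were mostly separated, and lipid handling genes were divided. Of 10 MHC class II genes 9 were separated upward (median 2.43), with H2-Aa at 829.6 to 2209 CPM against 559.5, 391, 296.5, 163 and 286 CPM. Ciita, the transactivator of the class II genes, overlapped between the classes at 11.1 to 33.6 and 6.71 to 29.1 CPM. Of 12 lipid genes 6 were separated upward, among them Abcg1, a cholesterol exporter, and Lpl, lipoprotein lipase, with log2 fold changes of 5.32 ± 0.32 and 5.04 ± 0.35 (SE). The related exporter Abca1 differed by -0.18 ± 0.31 (SE) and overlapped.

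Inflammatory genes were among those with the widest differences. Among 19 tested chemokine and cytokine genes 13 were separated upward (median 4.26). The cytokine gene Il6 reached 2.11 to 37.4 CPM in the macrophage-rich tumors and no more than 0.126 CPM in the macrophage-poor tumors, where its counts were between 0 and 6. Osm, a cytokine of the same family, ran from 36.2 CPM in KPY-Setd2KO_3 to 373 CPM in KPY-Ctrl_1, against 0.56, 1.36, 1.01, 0.377 and 0.538 CPM. Nlrp3, the inflammasome sensor, Cxcr4, a chemokine receptor, and Trem1, an amplifier of myeloid activation, had log2 fold changes of 7.15 ± 0.49, 7.01 ± 0.29 and 6.60 ± 0.37 (SE). The other genes among the 15 with the largest positive values, counted over protein-coding genes of at least moderate level, were Ccrl2, Fpr2, Nr4a3, Clec4a3, Cxcl2, Chil3, Cybb, Tlr7, Fosb, C5ar1 and Ear1, most of them receptors, chemokines or secreted products of myeloid cells. Cxcl3 and Spp1 did not follow, since the macrophage-poor KPY-Setd2KO tumors held more of both than any other tumor, with Spp1 at 2861 and 3038 CPM there and 361 to 1125 CPM in the rich class. Of 14 interferon-response genes 3 were separated, among them Oas1a and Cxcl10, and Mx1 differed by -0.23 ± 0.34 (SE).

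Many lymphocyte, neutrophil and dendritic cell genes did not pass the expression filter. Among those tested, 1 of 4 T and NK, 2 of 3 B cell, 2 of 6 neutrophil and 1 of 6 dendritic cell genes were separated upward. The share over all genes was 14.3%, and lists this short give no firm share to set beside it. In the macrophage-poor tumors the counts were 1 to 5 for Cd4, 4 to 12 for Ighm and 2 to 22 for Jchain. These genes may have passed the expression filter only through tumors where they were high, and their upward separation may be partly fixed by it. The 2 neutrophil genes were Mmp8 and the receptor gene Csf3r, with a log2 fold change of 3.68 for Csf3r. Of 13 T and NK cell genes 4 passed the expression filter, and the sum of their CPM lay between 3.19 and 6.73 in the rich and between 2.45 and 3.83 in the poor class. Cd4 was separated upward but did not exceed 1.6 CPM. Of 8 B cell genes 3 passed the filter. Jchain and Ighm, the joining chain and heavy chain of IgM, were separated upward, with 56.2 CPM of Jchain in KPY-Ctrl_1 and 1.72 to 11.1 CPM in the other rich tumors, whereas Cd79b was separated downward. The neutrophil markers S100a8 and S100a9 stayed at or below 7.97 and 4.30 CPM and overlapped, while the collagenase Mmp8, usually listed with neutrophils, was separated at 76.4 to 130.3 CPM against 1.46, 4.58, 3.25, 0.859 and 0.871 CPM. Of 10 dendritic cell genes 6 were tested and only Batf3 was separated. Fscn1, an actin-bundling gene of mature dendritic cells, did not exceed 2.58 CPM in the rich class and stood at 0.323, 2.58, 0.656, 88.2 and 96.4 CPM in the poor class, so among the 11 tumors it was high only in KPY-Setd2KO_5 and KPY-Setd2KO_6. The neutrophil receptor gene Cxcr2 overlapped between the classes, with 161 to 587 counts in the rich and 68 to 1634 counts in the poor tumors.

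Promoter sequences of the separated genes were searched for short words known from binding motifs, using RefSeq windows of 300 bases (250 before and 50 after a start, GRCm38.p6). The windows covered 11490 of the tested genes, among them 1779 of the genes separated upward and 1469 of those separated downward. The PU.1-type word GAGGAAGT, read on either strand, was in 5.83% of the windows of genes higher in the macrophage-rich tumors and in 2.12% of those of genes lower, against 3.21% of all windows. The grainyhead-type word AACCNGTT, known from epithelial regulation, was in 1.7% and 1.6% against 1.88%, and the AP-1-type word TGANTCA was in 6.61% and 6.97% against 5.70%. The share for the PU.1-type word was higher among the genes that were higher, while the shares for the other words lay closer together, and none of these shares was tested. No word contains another. A match describes letters in a window and not a bound site. No share over all genes was computed for upstream bases alone, so the count that follows has no background and shows no excess. Among 70 leukocyte, macrophage, phagocyte, cytokine and top-ranked genes with a window, the PU.1-type word lay upstream of the start in 3. The stretches of 100 bases that hold it in the 2 of these genes that were separated upward are shown with the word in capitals, to place it relative to the start, which is the base after the last one printed.
Fcgr4 (an activating Fc receptor; GRCm38.p6, chr1:171018826-171018925, plus strand): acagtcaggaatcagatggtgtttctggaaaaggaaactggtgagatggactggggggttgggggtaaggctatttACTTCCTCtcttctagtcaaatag
Vav1 (a leukocyte exchange factor; GRCm38.p6, chr17:57279000-57279099, plus strand): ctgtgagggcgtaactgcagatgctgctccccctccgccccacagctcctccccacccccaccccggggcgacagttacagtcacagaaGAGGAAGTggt

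In Fcgr4 the word read on the other strand, ACTTCCTC, began 24 bases before the start, and Fcgr4 spanned 51.9 to 227 CPM in the rich class against 2.50, 2.16, 2.59, 1.51 and 2.33 CPM in the poor class. In Vav1 it began 11 bases before the start, and the log2 fold change of Vav1 was 4.62 ± 0.32 (SE). The third gene, Spp1, holds the word as well and was not separated.

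Epithelial genes were lower in the macrophage-rich tumors, most completely in the general epithelial list. Of 22 general epithelial genes 18 were separated downward with a median of -1.75, and their values were tightly grouped, from -2.09 for Krt8 to -0.65 for Spint1. Krt8, a keratin of simple epithelia, spanned 162 to 532 CPM against 1616, 933, 1011, 2113 and 1843 CPM. Cdh1, E-cadherin, was lower by less, at 386 to 629 CPM against 1241.5, 1176, 1223, 877 and 1022 CPM. The summed CPM of the list lay between 1589.9 and 3796.5 in the rich and between 6957 and 11544 in the poor class, so epithelial transcripts were reduced but present in every macrophage-rich tumor.

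Among alveolar type 2 genes 8 of 14 were separated downward (median -1.30). Slc34a2, the phosphate transporter of these cells, spanned 252.5 to 671 CPM against 3099.8, 4029, 3848, 1239 and 1455 CPM. Sftpb spanned 1053 to 3265.5 CPM against 19865, 10118, 11843, 5622 and 6311 CPM. In both genes the macrophage-poor KPY-Setd2KO tumors were lower than the macrophage-poor KPY-Ctrl tumors. Of 11 alveolar type 1 genes 4 were separated downward, including the receptor Ager and the water channel Aqp5. Of 10 tested lineage transcription factors 7 were separated downward (median -1.77), among them Nkx2-1, Foxa1, Foxa2, Gata6, Hnf4a and Foxp2. Nkx2-1, the lung lineage factor, spanned 29.6 to 88.4 CPM against 376.5, 284, 293, 189 and 191 CPM. Of 9 gastric and gut genes 4 were separated downward, and of 9 club and ciliated genes only the mucin gene Muc5b was, a share below the background of 12.7%.

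Several matrix and cell-surface genes were among the 15 protein-coding genes with the largest negative values, chosen by the same rule. The 15 included Apob, Gpc1, F2r, Muc5b, Msln, Mmp14, Ecm1, Tm4sf1, Nid1, Ptprn, Myo10, Eml1, 2310007B03Rik and Bmp2. Apob, an apolipoprotein, spanned 0.0645 to 9.36 CPM against 334.5, 94.97, 39.9, 84.5 and 40.4 CPM. Gpc1, a cell-surface proteoglycan, spanned 2.68 to 7.23 CPM against 72.7, 15.7, 10.4, 163 and 140.0 CPM. Mmp14, a membrane metalloproteinase, spanned 7.38 to 27.2 CPM against 152, 33.2, 36.6, 465 and 529 CPM. In Gpc1 and Mmp14, as in F2r and Ecm1, KPY-Setd2KO_5 and KPY-Setd2KO_6 held the highest values of the 11 tumors. Of 13 tested desmosome and basement membrane genes 9 were separated downward (median -2.25), with Itgb4, the hemidesmosome integrin, at 2.58 to 30.0 CPM against 50.4, 82.5, 86.7, 190 and 142 CPM.

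The macrophage-poor class itself was divided by tumor progression genes. Tnc, a matrix protein of invasive tumors, stood at 897 and 337 CPM in KPY-Setd2KO_5 and KPY-Setd2KO_6 but at 9.73, 58.5 and 20.1 CPM in the macrophage-poor KPY-Ctrl tumors, and Hmga2, a chromatin protein of poorly differentiated tumors, stood at 113 and 102.5 CPM against 3.04, 34.1 and 27.0 CPM. In the macrophage-rich tumors they did not exceed 13.6 and 24.8 CPM. Of 18 tested progression and EMT genes 3 were separated upward (Vim, Zeb2 and Runx2) and 4 downward, among them Lamb3, Slc4a11 and Tm4sf1. Vim, an intermediate filament that leukocytes and mesenchymal cells share, spanned 2749 to 3754 CPM against 55.0, 205, 145.5, 1226 and 893 CPM. Zeb2, a repressor of epithelial genes that macrophages also express, spanned 122 to 303 CPM against 4.56, 5.27, 5.72, 7.67 and 9.48 CPM. The EMT regulators Zeb1 and Snai1 were not separated, with log2 fold changes of -0.17 ± 0.77 and -0.46 ± 1.20 (SE), and Twist1 and Snai2 did not pass the expression filter. Leukocyte genes were higher in the same tumors as Vim and Zeb2, and their part in these values was not tested.

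Of 15 MAPK output genes 8 were separated downward (median -1.30), among them the feedback phosphatase gene Dusp6 at 104.5 to 197 CPM against 344, 339, 352, 272 and 272 CPM. Dusp5 was separated upward, with a log2 fold change of 2.06 ± 0.28 (SE). Among 17 genes of the RB pathway and G1 control 7 were separated upward and 2 downward, and the list median of 0.218 turned to -0.162 when libraries were scaled by size alone. The cyclin genes exchanged places. Ccnd1 spanned 53.7 to 127 CPM against 233, 301, 280.2, 478 and 444 CPM, whereas Ccnd2 spanned 154 to 269.9 CPM against 36.3, 51.9, 50.3, 30.4 and 14.04 CPM. Cdkn1a, Cdkn2c, E2f1, E2f2 and the pocket protein gene Rbl1 were separated upward with Rb1, and the inhibitor gene Cdkn2b was separated downward. Of 23 proliferation genes 6 were separated upward and none downward, and the list median of 0.403 became 0.0214 under library-size scaling, but Mki67, the standard marker of cycling cells, differed by only -0.02 ± 0.25 (SE) and overlapped at 21.0 to 55.1 and 32.9 to 48.5 CPM.

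Most immediate-early genes were higher in the macrophage-rich tumors. Of 17 listed genes 14 were separated upward (median 2.09), while Egr3, Ier2 and Ier3 overlapped. Fos spanned 1220 to 2248 CPM in the macrophage-rich tumors and stood at 78.8, 44.9, 55.1, 72.7 and 84.6 CPM in the macrophage-poor tumors. Fosb spanned 563 to 1611 CPM against 5.73, 6.03, 6.80, 19.0 and 19.75 CPM. Of 11 heat shock genes 3 were separated upward, and Hspa1a, the inducible HSP70 gene, spanned 1294 to 2862 CPM against 104.8, 42.5, 33.6, 98.7 and 207 CPM. The constitutive family member Hspa8 and the mitochondrial chaperone Hspd1 were not separated. These genes are induced by tissue dissociation as well as in activated macrophages, and their part in the other differences was not tested.

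Most mitochondrially encoded transcripts had log2 fold changes below 0 (11 of 13), with a list median of -0.449 that became -0.834 under library-size scaling. Of 13 genes 3 were separated downward, namely mt-Cytb, mt-Co2 and mt-Nd1. The cytochrome b gene mt-Cytb spanned 3301 to 4369 CPM in the macrophage-rich tumors and stood at 9703, 9185, 11034, 11626 and 15394 CPM in the macrophage-poor tumors, a log2 fold change of -1.58 ± 0.15 (SE). The cytochrome oxidase gene mt-Co1, transcribed from the same strand, differed by 0.50 ± 0.15 (SE) and was not called separated. A value this near 0 has no firm direction, because the scaling can move it. Among 77 nuclear electron transport genes 7 were separated upward and none downward, and 72 had log2 fold changes above 0 on the TMM scale. The scores of this list did not overlap, at 6.19 to 6.59 in the rich and 5.64 to 5.99 in the poor class. Its median of 0.535 became 0.159 under library-size scaling. Among 83 ribosomal protein genes 3 were separated, Rpl23 and the tissue-restricted copies Rpl39l and Rpl3l. The ribosomal list median of 0.268 became -0.108 under library-size scaling. The shares of separated genes in both lists are below the background of 14.3%. Reads of near-identical ribosomal protein pseudogenes may be divided among copies by the quantification.

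Of 18 glycolysis genes 3 were separated upward and 2 downward, shares near the background of all genes. Hk3, a hexokinase of leukocytes, was separated upward at 39.0 to 96.9 CPM against 1.01, 3.02, 2.30, 1.26 and 3.02 CPM, and Hk1 was separated downward at 31.0 to 49.2 CPM against 83.4, 64.3, 65.4, 145 and 142 CPM. Pfkp was likewise higher and Pfkm lower. Of 13 cholesterol synthesis genes 5 were separated upward, led by Dhcr7 with a log2 fold change of 2.42 ± 0.29 (SE), while the list median of 0.329 became -0.0474 under library-size scaling. Of 9 fatty acid synthesis genes Acaca, Scd2 and Me1 were separated downward (list median -1.10).

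**Figure D3:**
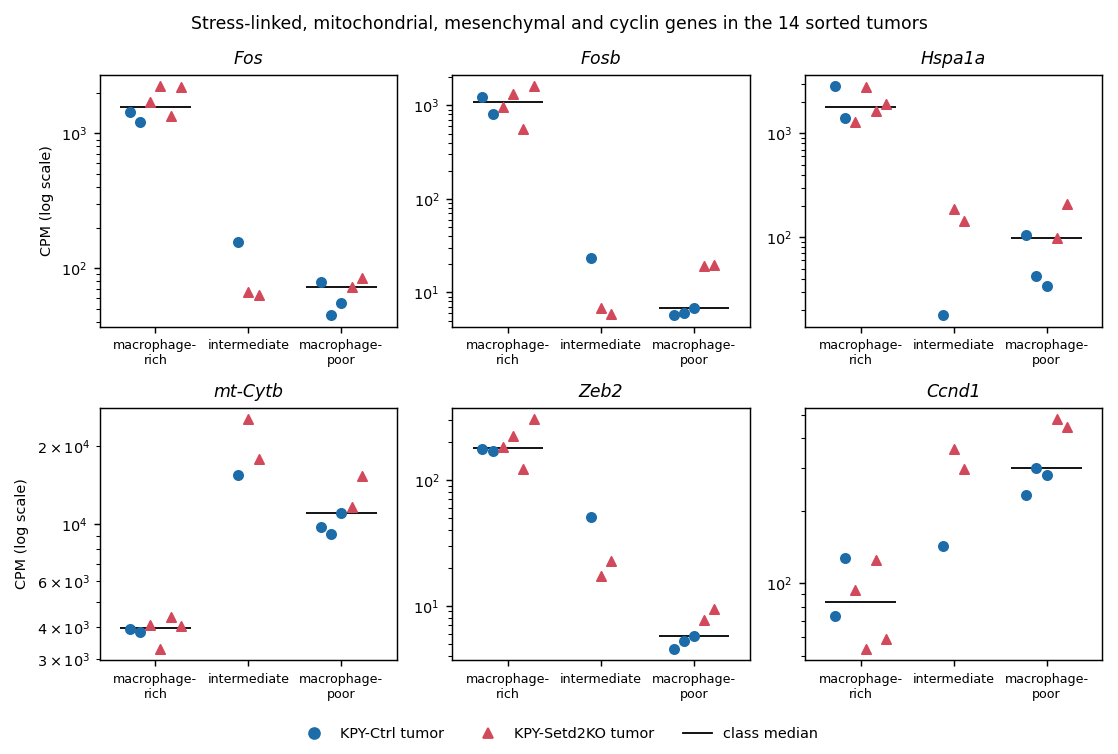
CPM (log axis) of Fos, Fosb, Hspa1a, mt-Cytb, Zeb2 and Ccnd1 in each of the 14 tumors by class, with circles for KPY-Ctrl, triangles for KPY-Setd2KO and a line at each class median. Fos, Fosb and Hspa1a are high and mt-Cytb is low in the 6 macrophage-rich tumors alone, and KPY-Ctrl_6 lies near or beyond the macrophage-poor tumors for these 4 genes.

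Genes of other stromal cells did not follow the classes. Of 14 tested endothelial genes Vwf was separated upward and Esam downward, and Pecam1 overlapped at 5.98 to 39.4 and 6.62 to 11.3 CPM. Of 13 tested fibroblast genes Sparc and Bgn were separated downward and none upward, with Col1a1 at 1.19 to 30.9 CPM in the rich and 1.62 to 4.21 CPM in the poor class. None of 5 tested hemoglobin and erythroid genes was separated. Sex-linked genes were mixed in both classes. Xist, expressed in females, was above 100 CPM in KPY-Ctrl_1, KPY-Setd2KO_2, KPY-Setd2KO_3 and KPY-Ctrl_3, which are 3 rich and 1 poor tumor, and at most 0.456 CPM in the other 7.

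The 3 tumors left out did not form a single middle group. On a scale where the mean score of the macrophage-poor class is 0% and that of the macrophage-rich class is 100%, KPY-Ctrl_6 stood at 87.2% for the pan-leukocyte list, 89.7% for the macrophage list and 85.1% for the alveolar macrophage list. KPY-Setd2KO_7 and KPY-Setd2KO_8 stood at 29.0% and 31.0% for the pan-leukocyte list, so KPY-Ctrl_6 was close to the rich class and the others were nearer the poor class. For epithelial genes KPY-Ctrl_6 stood at 67.1% and the KPY-Setd2KO tumors at -7.70% and -8.40%, within the range of the poor class.

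KPY-Ctrl_6 departed from the rich class in immediate-early genes, where it stood at 9.65%, and in heat shock genes, where it stood at -68.2%. Fos was at 156 CPM in this tumor, above the highest macrophage-poor value of 84.6 CPM but far below the lowest macrophage-rich value of 1220 CPM, and Hspa1a, at 17.8 CPM, was lower than in any of the 11 classed tumors. Rb1 was at 26.1 CPM, between the classes. Among the 2402 genes separated upward, KPY-Ctrl_6 reached the rich range in 1097 (45.7%), stayed in or below the poor range in 254 (10.6%) and fell between in 1051. Among the 2137 genes separated downward the corresponding numbers were 931 (43.6%), 416 (19.5%) and 790. The genes of the 254 with the largest fold changes, listed after their values were seen, were Nr4a3, Cxcl2, Atf3, Tnfaip3, Hspa1a, Nr4a1, Gadd45b, Nfkbiz, Gdf15, Pim1, Zfand2a and Hspa1b, several of which are heat shock, immediate-early or NF-kB response genes. Macrophage and stress-linked transcripts thus moved together in the 11 classed tumors but not in KPY-Ctrl_6, which had high macrophage markers with low immediate-early and heat shock values.

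**Figure D4:**
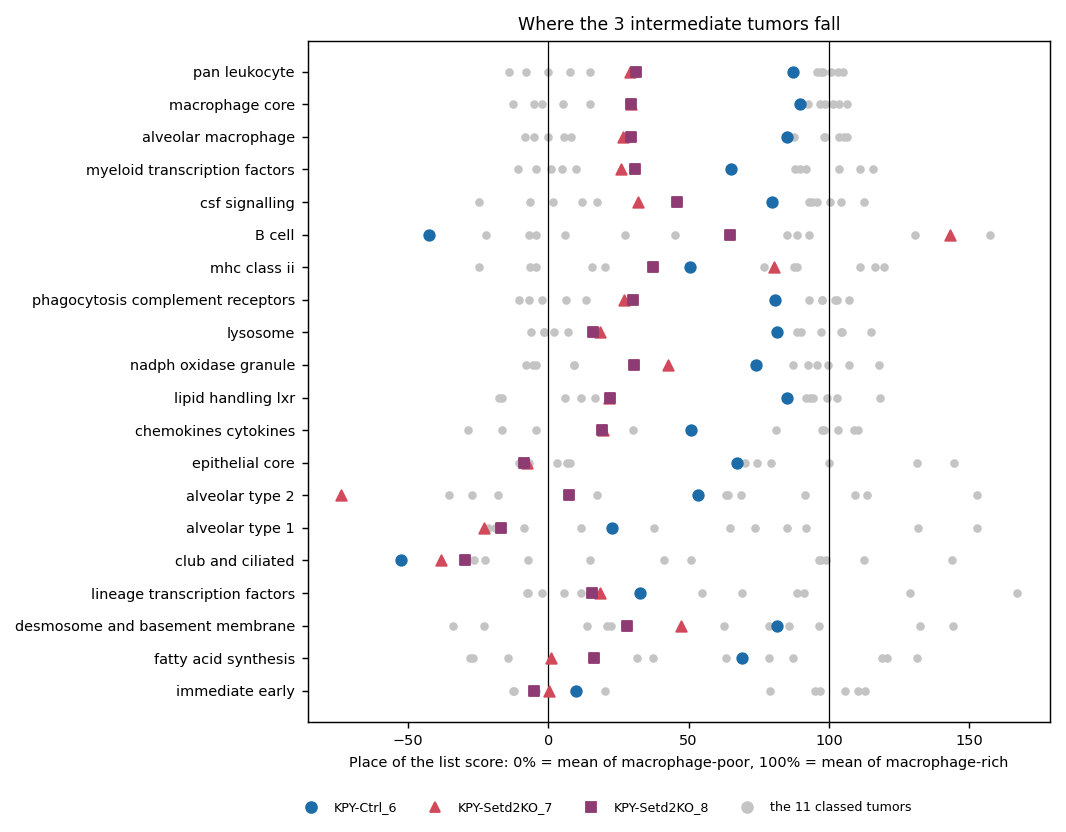
Place of each tumor's list score between the mean of the macrophage-poor (0%) and the macrophage-rich class (100%) for the 20 lists whose scores did not overlap and differed by more than 1 on the log2 scale, with the 11 classed tumors in grey. KPY-Ctrl_6 lies at 89.7% for the macrophage list and at 9.65% for immediate-early genes, and KPY-Setd2KO_7 and KPY-Setd2KO_8 lie at 29.5% and 29.4% for the macrophage list.

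The class difference was also computed inside each genotype, which share no tumors. The log2 fold changes within KPY-Ctrl (2 rich, 3 poor) and within KPY-Setd2KO (4 rich, 2 poor) had a Pearson correlation of 0.783 and a Spearman correlation of 0.798 across the 16836 genes, which are not independent of each other. The macrophage list had medians of 4.70 and 5.66 and the general epithelial list medians of -1.40 and -1.81, in the same direction in both genotypes. Tumors of both genotypes were classed on such values, Csf1r and Epcam among them, so this shared direction follows from the choice. The correlations may partly do so as well, and neither is independent support. The progression and EMT list had medians of 0.180 within KPY-Ctrl and -3.05 within KPY-Setd2KO. The difference was not tested because the classes were chosen on measured values. The value within KPY-Setd2KO rests on 2 macrophage-poor tumors, with list scores of 6.77 (KPY-Setd2KO_5) and 6.52 (KPY-Setd2KO_6). The intermediate KPY-Setd2KO_7 and KPY-Setd2KO_8 scored 4.18 and 4.99, nearer the macrophage-poor KPY-Ctrl tumors at 3.69, 4.4 and 4.21. Hmga2 had values of -0.74 and -3.27, Tnc of -1.93 and -7.88, and Vim of 4.68 and 1.59.

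**Figure D5:**
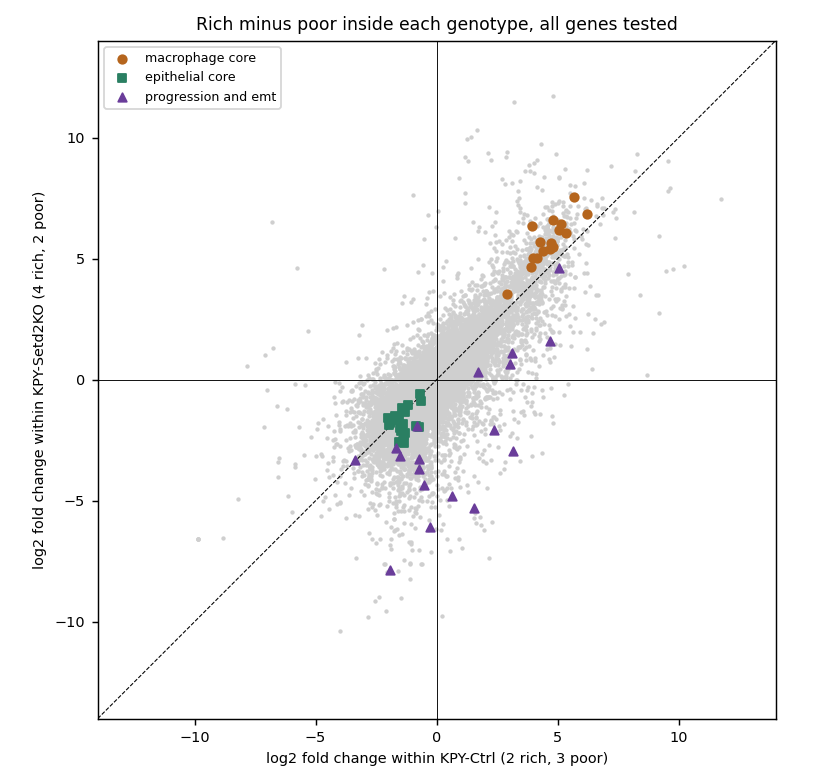
Log2 fold change (macrophage-rich minus macrophage-poor) within KPY-Ctrl (x axis) against that within KPY-Setd2KO (y axis) for all 16836 genes tested (grey), with 3 lists coloured and a dashed line of equality. Macrophage genes lie at the upper right and epithelial genes at the lower left in both genotypes, while many progression and EMT genes lie below the line.

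Setd2 itself was compared between genotypes with class as a term. It averaged 55.2 ± 11.6 CPM (SD, n = 3) in macrophage-poor KPY-Ctrl and 23.0 ± 6.82 CPM (SD, n = 2) in macrophage-poor KPY-Setd2KO tumors, but 53.8 ± 3.14 (SD, n = 2) and 40.3 ± 6.70 CPM (SD, n = 4) in the macrophage-rich tumors. The genotype coefficient was -0.82 ± 0.21 (SE) on the log2 scale with an adjusted p of 0.071 (edgeR quasi-likelihood test with Benjamini-Hochberg adjustment), so Setd2 did not pass the threshold of 0.05, while DESeq2 gave an adjusted p of 0.0103. Inside KPY-Setd2KO the 4 macrophage-rich tumors held 32.7 to 47.4 CPM of Setd2 and the macrophage-poor tumors 27.8 and 18.2 CPM, and the intermediate KPY-Setd2KO tumors held 17.9 and 28.2 CPM. In the knockout tumors the Setd2 transcript was thus higher where macrophage transcripts were high, whereas in KPY-Ctrl tumors the class difference was -0.04 on the log2 scale. A guide that cuts the coding sequence need not lower the transcript, so the level does not measure the loss of the protein. Trp53 was not separated, at 1.67 to 4.59 CPM in all 11 tumors.

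With class as a term, genotype called 111 genes (0.659% of those tested, Benjamini-Hochberg adjusted p under 0.05 in the edgeR quasi-likelihood test and absolute log2 fold change over 1), 95 of them higher in KPY-Setd2KO. This number was unstable. It fell to 0 without KPY-Ctrl_4, KPY-Ctrl_5 or KPY-Setd2KO_6, where 3028, 3158 and 2422 genes still had an unadjusted edgeR p under 0.05, against 3763 with all 11 tumors. It was 29 without KPY-Ctrl_3, 45 without KPY-Setd2KO_2, 11 without KPY-Setd2KO_3, 20 without KPY-Setd2KO_4, 28 without KPY-Setd2KO_5 and 456 without KPY-Setd2KO_1, while DESeq2 called 809. Of the 111 genes 14 were also separated by class, against 4539 of 16836 among all genes tested. A large genotype difference widens the spread inside each class, which makes separation by class less likely. The smaller share may therefore follow from the calling rules.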

How the data were processed

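RNA from 14 sorted tumors was sequenced by the authors as single-end reads. Per the published methods, transcripts were quantified with Salmon 0.8.2 on the GRCm38.p5 build. The deposited values are estimated counts for each gene, not normalized, and were rounded to whole numbers here. The annotation release is not given in the sources used here, and gene positions were taken from GENCODE on GRCm38. The GEO labels name other extraction and library kits than the methods.

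Genes passing the edgeR expression filter by genotype were fitted with edgeR 4.0.16 in R 4.3.3 (TMM over 14 tumors, quasi-likelihood fit of the 11 classed tumors, genotype and class as terms). Genes with few counts in the macrophage-poor tumors may have passed the expression filter through the other tumors, which partly fixes their direction. Log2 CPM used a prior count of 2. SEs were the log2 fold change divided by the root of its F value. A list score is the mean log2 CPM of its members. No p-value was used for class. The code was tested on simulated counts. Classes, members and lists were chosen with earlier results of these data known. Named genes were the 6 markers, the first members and extremes of each list and the 15 genes at each end, and other names were chosen after their values were seen. DESeq2 1.42.0, other scalings and filters, a replicate block and leaving out tumors were tried. Whether replicate numbers pair the tumors could not be told, and interactions were not tested. Some genes are not reported here.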

Additional observations from a re-analysis of the deposited data

Results flagged for a closer look

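Among 358 groups of values examined, 15 (4.19%) held a tumor far from the others by Dixon's criterion, and chance alone flags about 1 in 20. In log2 CPM, among the macrophage-rich tumors, KPY-Ctrl_2 stood apart in Ccr2 at 6.17, KPY-Setd2KO_3 in Osm at 5.18 and in Nlrp3 at 5.64, KPY-Setd2KO_1 in Vwf at 5.53 and KPY-Setd2KO_2 in Dhcr7 at 6.61. Osm and Nlrp3 were low in KPY-Setd2KO_3 relative to the other rich tumors, which began at 7.47 and 7.16, yet far above the macrophage-poor tumors.

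Among the macrophage-poor tumors KPY-Ctrl_3 stood apart in Xist at 8.64, in Ddx3y, a Y-linked gene, at -2.62, and in the sex-linked list score at 1.17. The same tumor was set apart in the monocyte antigen gene Ly6c2 at 6.43, in Cd79b at 3.63 and in Nr4a3 at 1.29. KPY-Setd2KO_6 stood apart in the proliferation list score at 4.03, in the mitochondrially encoded list score at 11.8 and in Bub1b at 3.15, and KPY-Setd2KO_5 stood apart in Me1 at 8.28.

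In 7 results every macrophage-rich tumor lay on one side of the macrophage-poor tumors in KPY-Ctrl and on the other side in KPY-Setd2KO. These differences were not tested, and within KPY-Setd2KO they rest on 2 macrophage-poor tumors. The share of such reversals over all genes is not given, so the count has no background and shows no excess. The class contrast in KPY-Ctrl minus that in KPY-Setd2KO was 2.54 for the dendritic cell list score, 3.24 for the progression and EMT list score, 4.05 for Csf1, -0.841 for Npc2, -3.29 for Apoe, 3.49 for Spp1 and 6.54 for Cxcl3, all on the log2 scale.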

How the results depend on the processing

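With an absolute log2 fold change over 2, 1311 genes were higher and 747 lower in the macrophage-rich tumors. Library-size scaling gave 3402 lower genes, and dividing all 14 tumors at the largest gap in the pan-leukocyte score gave 1286 lower genes. Leaving out a tumor gave 2305 to 2572 higher and 2130 to 2647 lower genes. Genotype with class as a term called 45 genes with library-size scaling, 809 with DESeq2, and from 0 to 456 when a tumor was left out. The median of the RB and G1 list turned to -0.162 with library-size scaling, and the cause was not tested. That of the B cell list turned to -1.68 when at least 10 counts were required in every tumor. Jchain and Ighm, with as few as 2 and 4 counts in a macrophage-poor tumor, do not meet this requirement. The value is therefore that of Cd79b alone and not of a list. Counting each list once per alternative, 712 other medians moved by less than the spread between tumors and 65 by more. For named genes these numbers were 2501 and 83.

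With the replicate block, 2381 genes were higher and 2090 lower, and genotype called 0 genes by edgeR (685 at an unadjusted p under 0.05). The correlation of deviations from the genotype mean of same-numbered tumors ranged from -0.664 to 0.657. It was positive for replicates 1, 2 and 5, where both tumors were of the same class, and negative for the others. Class was not removed from the deviations, so they cannot tell whether the numbers pair the tumors.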
